A study of Mus musculus with 2 samples.

Results

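The fetal carrier proteins are secreted plasma proteins that bind and move small molecules, and the genes read here are Afp, Alb, Ttr, Rbp4, Ambp and Ahsg. They were chosen by name, every probe set annotated to exactly 1 of the 7 listed symbols being taken, and the choice was made with results of these arrays known. Of the 7 genes, 6 had such a probe set, out of 18193 genes in all. Trf, encoding the iron carrier transferrin, had none, because its only annotated probe set is shared with Srprb, and its level was not read. The 6 genes gave 13 probe sets, 8 of them ending in _s_at, _x_at or _a_at, and 5 without such a suffix. The suffix marks probes that can bind more than 1 transcript, whether of the same gene or of related ones.

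Whole limb buds of mouse embryos of the C57BL/6 strain were collected at E10.5. The groups were wild-type and Bhlha9 knockout, with 1 Affymetrix mouse expression array each. The knockout allele, the number of embryos behind each RNA, and the shares of forelimb and hindlimb buds were not stated in the labels or the design text. With 1 array per genotype no difference could be tested, no value carries an error between embryos, and every value is a description of these 2 arrays.

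Afp (alpha-fetoprotein) and Alb (albumin) are sister genes that lie side by side, and their products are the main serum proteins of the fetus and of later life. Ttr (transthyretin) carries thyroxine and also holds Rbp4, the plasma retinol carrier, in circulation. Ambp encodes a precursor that is cut into the lipocalin alpha-1-microglobulin and the protease inhibitor bikunin, and Ahsg encodes fetuin-A, which binds calcium phosphate. In the embryo these proteins are known as products of liver and yolk sac endoderm, and Ttr also of choroid plexus.

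Promoter windows from RefSeq (GRCm38.p6) were at hand for Afp, Alb, Rbp4, Ambp and Ahsg, and those of the neighbours Afp and Alb are shown because both genes, by their brightest probe sets, read under the floor in wild-type and high in knockout, with that of Ahsg because it gave no signal above the floor on either array. Each line gives the 150 bases before the annotated transcript start on the gene's own strand, and capitals mark matches on either strand to 3 motifs. GTTAAT is part of an HNF1 binding site. TTGCNNAA is a C/EBP type site. TATAAA is the TATA box. The Afp stretch is chr5:90490564-90490713 on the + strand, that of Alb chr5:90460720-90460869 on the + strand and that of Ahsg chr16:22891865-22892014 on the + strand.
Afp: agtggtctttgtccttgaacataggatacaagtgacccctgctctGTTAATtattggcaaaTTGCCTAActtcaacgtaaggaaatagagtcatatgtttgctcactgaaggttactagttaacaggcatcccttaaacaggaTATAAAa
Alb: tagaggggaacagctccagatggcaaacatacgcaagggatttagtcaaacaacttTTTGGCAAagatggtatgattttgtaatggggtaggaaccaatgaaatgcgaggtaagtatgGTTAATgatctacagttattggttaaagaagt
Ahsg: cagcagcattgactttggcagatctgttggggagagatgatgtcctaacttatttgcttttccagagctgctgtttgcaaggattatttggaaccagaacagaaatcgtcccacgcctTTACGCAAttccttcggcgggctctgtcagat

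The Afp window held a GTTAAT match from base -105 to -100 before the start, a TTGCNNAA match from -89 to -82 and a TATAAA match from -7 to -2. In the Alb window, GTTAAT lay at -32 to -27 and TTGCNNAA, on the opposite strand, at -94 to -87. Ahsg had a single match, TTGCNNAA on the opposite strand at -32 to -25. Rbp4 has 2 annotated starts. The window of the start farther downstream held TATAAA at -28 to -23 and TTGCNNAA on the opposite strand at -128 to -121, and that of the other start held TGTTTAC (FOXA type) on the opposite strand at -241 to -235. None of the 5 motifs, which also included AAAGTCC (the core of an HNF4 site), was found in the Ambp window. Such matches are common. Of 32851 RefSeq windows of 300 bases, GTTAAT occurred in 7.10%, TGTTTAC in 3.65%, AAAGTCC in 4.21%, TTGCNNAA in 10.8% and TATAAA in 13.6%. No 2 matches in the windows of these genes overlapped.

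**Figure D1:**
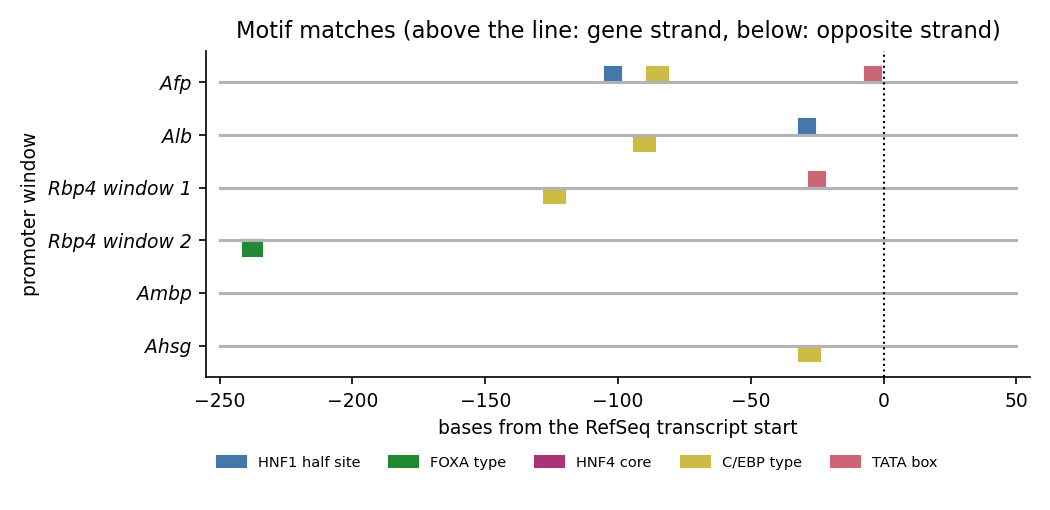
Positions of the motif matches in the RefSeq promoter windows of 5 genes, in bases from the transcript start (dotted line), with 1 row per window and matches on the opposite strand drawn below the line. Afp and Alb are the genes with a GTTAAT match, and Ambp has no match.

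The values are MAS 5.0 signals, an intensity per probe set on a linear scale. The level taken as background, here called the floor, was each array's 40th percentile, 41.2 for wild-type and 41.8 for knockout. Signals below it were treated as not above background and raised to it before a log2 ratio, knockout over wild-type, was taken. Where the wild-type signal was under the floor the ratio is a lower bound, written as at least N-fold. Bhlha9, the targeted gene, read 7.87 (wild-type) and 1.70 (knockout), each below the floor, so it gave no check of the labels. Limb bud mesenchyme markers, the check of the tissue, were above the floor for 14 of 14 genes in wild-type and for 13 in knockout.

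Carrier protein transcripts gave strong signals on the knockout array for 5 of the 6 genes read. On the wild-type array 3 of their probe sets, 1 each of Afp, Ttr and Rbp4, were above the floor. Of the 13 probe sets, 11 were above the floor on at least 1 array, all 11 of them higher by 2-fold or more on the knockout array, and 0 were lower. Over all 24162 single-symbol probe sets above the floor on an array, 3.38% were at least 2-fold higher and 3.89% at least 2-fold lower. Since 8 of the 11 were above the floor on the knockout array alone, their ratios could only be positive. Among all probe sets of that kind 17.7% passed 2-fold, and among those above the floor on both arrays 2.43%. At a threshold of 8-fold, 9 of the 13 passed, beside 0.157% of all probe sets. These genes were named from this same contrast, so the counts describe them and support nothing.

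**Figure D2:**
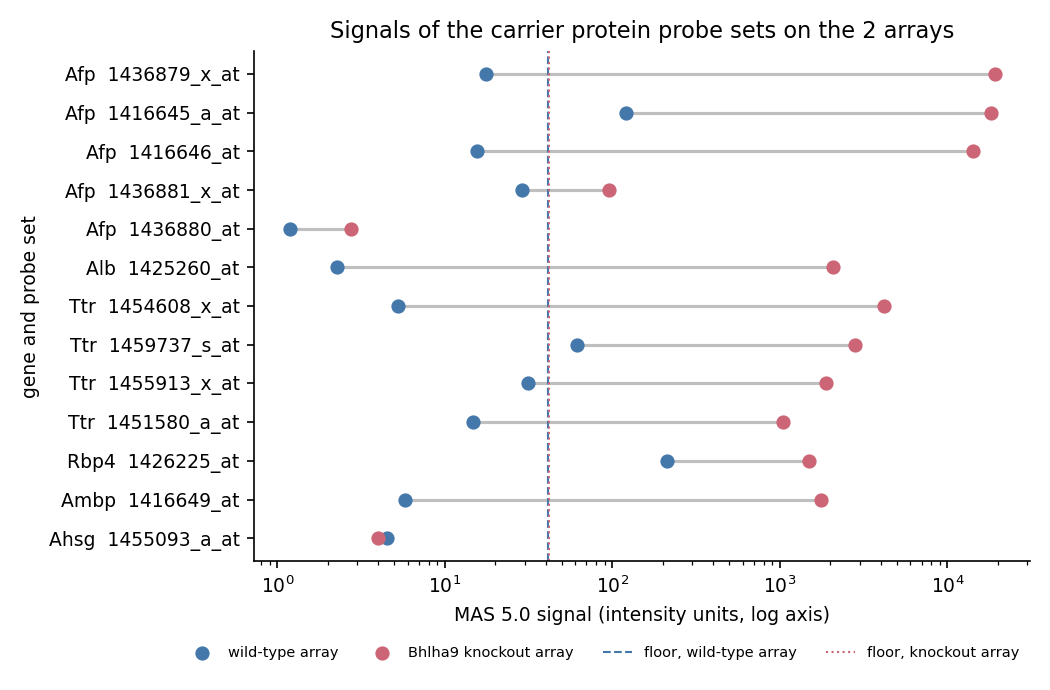
MAS 5.0 signals (log axis) of the 13 carrier protein probe sets, 1 row each, on the wild-type and the Bhlha9 knockout array, with each array's floor as a vertical line. In 8 rows the wild-type point lies left of the floor and the knockout point right of it, 3 rows have both points right of it, and 2 rows, of Afp and Ahsg, have both left of it.

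Afp, the fetal member of the albumin family, had 5 probe sets that did not read alike. Probe set 1436879_x_at read 17.7 in wild-type and 19084 in knockout, higher by at least 463-fold. Probe set 1416646_at, which has no suffix, read 15.5 and 14134, at least 343-fold higher. The third, 1416645_a_at, was above the floor on both arrays, at 119.9 and 18222, a measured ratio of 152-fold. Afp was thus far higher on the knockout array by 3 probe sets, with or without a suffix.

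The other two Afp probe sets were dim on both arrays. Probe set 1436881_x_at read 28.7 and 96.1, at least 2.33-fold higher and the carrier probe set closest to the 2-fold threshold from above. Its companion 1436880_at read 1.18 and 2.77, under the floor on both. Both are annotated to the same transcript record, which differs from the records of the other three. Across the 4 readable Afp probe sets the log2 ratio ran from 1.22 to 8.86. Why the 2 dim ones differ was not tested.

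Alb, encoding the main adult plasma protein, has 1 probe set, without a suffix. It read 2.26 in wild-type and 2071 in knockout, higher by at least 50.3-fold. The wild-type signal was far under the floor, so the bound depends on where the floor is set.

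The third gene of the albumin family on the arrays, Afm, encodes afamin, which binds vitamin E. It read 37.6 and 243, at least 5.90-fold higher, a call lost with the floor at the 60th percentile, which left 2 genes of the family past 2-fold. No single-symbol probe set was at hand for Gc, the vitamin D carrier of the same family. All 3 family members that could be read were higher on the knockout array. Over all 13088 genes, 4.15% were at least 2-fold higher and 2.65% at least 2-fold lower. All 3 were under the floor in wild-type, so their ratios could only be positive, and among all probe sets of that kind 17.7% passed 2-fold. Alb and Afp were also named from this same contrast.

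Ttr, the thyroxine carrier, has 4 probe sets, each with a suffix. Probe set 1454608_x_at read 5.23 in wild-type and 4179 in knockout, higher by at least 101-fold. Probe set 1459737_s_at was above the floor on both, at 61.1 and 2819, a ratio of 46.1-fold from a wild-type signal not far above the floor. The other two, 1455913_x_at at 31.2 and 1895 and 1451580_a_at at 14.7 and 1047, were at least 46.0-fold and 25.4-fold higher. All 4 gave the same direction, with log2 ratios from 4.67 to 6.66, and there is no Ttr probe set without a suffix to set beside them.

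Rbp4, the retinol carrier that travels bound to transthyretin, was the carrier gene with the clearest wild-type signal. Its single probe set, without a suffix, read 211 on the wild-type array, 5.12 times the floor, and 1496.5 on the knockout array, a 7.10-fold difference. Unlike Afp, Alb, Ttr and Ambp, it had no wild-type reading under the floor. Ambp, the precursor of alpha-1-microglobulin and bikunin, read 5.78 and 1768, at least 42.9-fold higher, by a single probe set without a suffix. Both are lipocalins, a family of small carriers of hydrophobic molecules.

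Ahsg, the fetuin-A gene, did not follow the others. Its single probe set, of the _a_at kind, read 4.53 and 3.97, under the floor on both arrays, so no ratio is given and no difference was detectable. A signal under the floor does not show that the transcript is absent.

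Because bounds have no order, carrier probe sets were ranked only where both arrays were above the floor. Among 20895 such probe sets, 1416645_a_at of Afp had the highest ratio, 1459737_s_at of Ttr the next highest and the probe set of Rbp4 stood at rank 13. Read by the brightest probe set, the 5 readable carrier genes had a median log2 ratio of 5.65, against 0.01 over all 13088 genes above the floor on an array, and 4 of the 5 ratios are bounds. For 5440 other genes, with 2 probe sets above the floor on both arrays, the disagreement within the brightest pair was taken. It gave a robust SD of 0.28 for a single log2 ratio, from the median absolute deviation, which gives little weight to extreme pairs. This is an error of reading within the arrays, and it holds nothing of how embryos or dissections vary. It also leaves out the carriers. The ordinary SD, an unlike measure, over their own readable probe sets, most of them bounds, was 3.54 for Afp and 0.82 for Ttr.

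**Figure D3:**
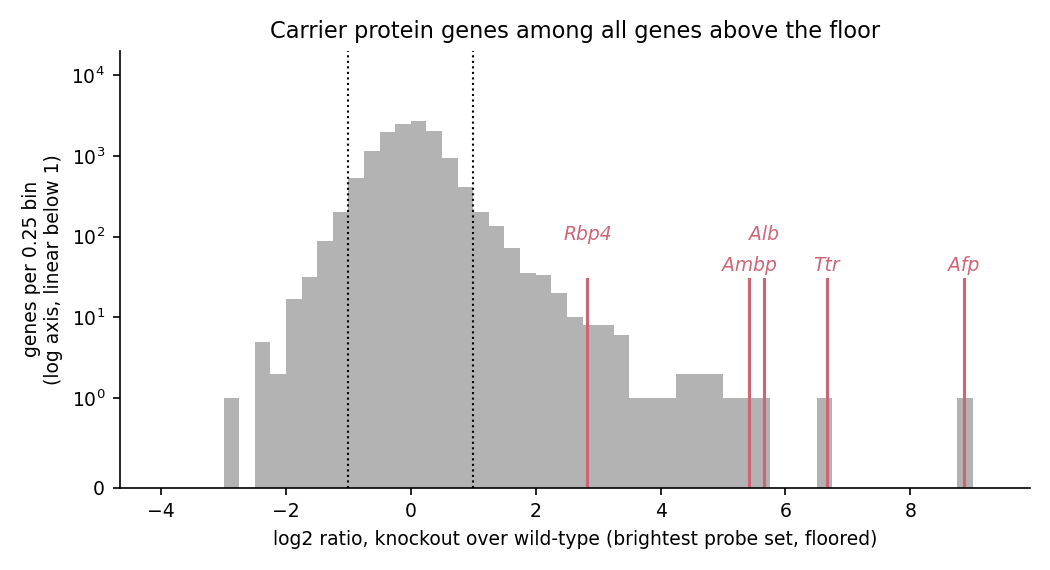
Log2 ratios, knockout over wild-type, of 13088 genes by their brightest probe set (grey bars, log count axis, linear below 1), with the 5 readable carrier genes as red lines and 2-fold as dotted lines. Afp (8.86), Ttr (6.66), Alb (5.65) and Ambp (5.42) are lower bounds at the right edge, and Rbp4 (2.83) was measured on both arrays.

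As a measure of likeness, the 10 other genes whose log2 ratio lay closest to the carriers' median of 5.65 were listed. That median is itself the bound of Alb, all 10 genes lie below it, and 7 of their values are bounds, which have no order among them. Those 7 were the plasma protease inhibitor Serpina1b (at least 5.11), Itih2 (at least 4.92), whose product is a heavy chain that pairs with bikunin from Ambp, the lipocalin Apom (at least 4.78), the fibrinogen chains Fgb (at least 4.53) and Fgg (at least 4.33), the apolipoprotein Apoa1 (at least 4.29) and the plasmin inhibitor Serpinf2 (at least 3.79). The genes measured on both arrays were the apolipoprotein Apoa2 (4.59), Fabp7 (4.08), which binds fatty acids in radial glial cells, and Tnnc1 (3.65), a troponin of heart and slow muscle. Likeness here rests on 1 difference between 2 arrays.

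Among the lipocalins, which include Rbp4 and Ambp, 6 of 11 genes were above the floor on an array. Of these 3 were at least 2-fold higher and 0 lower, beside 4.15% and 2.65% of all genes. Rbp4 and Ambp are among the 3 and were named from this same contrast. Without them 1 of 4 readable lipocalins was higher, and the median log2 ratio of the 4 was -0.15. Apom, which carries sphingosine-1-phosphate on lipoprotein particles, read 36.1 and 1135, at least 27.6-fold higher, and its other readable probe set had a log2 ratio of 3.78. The remaining 3 were inside 2-fold, at log2 ratios of -0.71 for the prostaglandin synthase Ptgds, -0.62 for Apod and 0.32 for the complement gene C8g. Lcn2, Orm1, Orm2, Obp2a and Lcn12 were under the floor on both arrays, and a floor at the 20th percentile gave 1 lower gene. The acute phase genes Orm1 and Orm2 are, like Ahsg, liver products that gave no readable signal here.

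In the list of fetuin and cystatin type genes, 2 of 5 were above the floor on an array and 0 passed 2-fold in either direction. Fetub read 42.0 on the wild-type array, just over the floor, and 37.5 on the knockout array, just under it. Hrg and Kng1, encoding histidine-rich glycoprotein and kininogen, were under the floor on both. Cst3, a cystatin made by many cell types, was at 2800 and 3157, a log2 ratio of 0.17.

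Of 15 iron handling genes read, the setting in which Trf acts, 12 were above the floor on an array. Their median log2 ratio was 0.09. Upward, 2 passed 2-fold, and downward 0, beside 4.15% and 2.65% of all genes. Hpx, the heme carrier hemopexin, read 11.8 and 113, at least 2.75-fold higher. The iron exporter Slc40a1 read 257 and 562, a log2 ratio of 1.13, with 0.37 by its other readable probe set. At a 60th percentile floor, or by the median of each gene's probe sets, 1 gene of the list passed 2-fold upward. Downward, 3 genes passed with a 20th percentile floor and 1 with a pseudocount of 32. The largest ratios after these were those of Meltf, a membrane relative of transferrin, lower by at least 1.65-fold, and of Hfe (0.44). Hp and Hamp, encoding haptoglobin and hepcidin, were under the floor on both arrays.

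Of 12 genes read that encode receptors and uptake proteins for the carriers, 10 were above the floor on an array. The median ratio of the 10 was 0.20 on the log2 scale. Upward, 1 passed 2-fold, and downward 0, beside 4.15% and 2.65% of all genes. The gene past 2-fold was Lrp2, encoding megalin, which takes up retinol-bound Rbp4 and other carriers. It read 42.9, just over the floor, and 95.2, a log2 ratio of 1.15, with 0.67 by its other readable probe set. It did not pass 2-fold with a pseudocount of 32, with the floor at the 60th percentile or by the median of its probe sets. A floor at the 20th percentile gave 2 genes of the list higher and 2 lower.

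The transferrin receptor genes had log2 ratios of 0.24 for Tfrc, at 5292 and 6230, and 0.16 for Tfr2. Stra6, the cell surface receptor for Rbp4, read 152 and 123, a ratio of -0.31, and its relative Stra6l was at 0.40. Fcgrt, whose product returns albumin to the circulation, was at 0.43, the thyroid hormone transporter Slc16a10 at 0.30, and the endocytic adaptor Dab2 at 0.17. Amn, the partner of cubilin, was at -0.33, while Cubn itself and the asialoglycoprotein receptor gene Asgr2 were under the floor on both arrays. Asgr1 read 44.8 on the wild-type array, just over the floor, and 16.8 on the knockout array.

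Genes that handle retinol and thyroxine inside the cell were mixed. Of 19 genes read, 13 were above the floor on an array, with a median ratio of 0.12 on the log2 scale. Upward, 3 passed 2-fold, and downward 1, beside 4.15% and 2.65% of all genes. The retinal dehydrogenase Aldh1a2 was at 1.47, and Aldh1a1 and Aldh1a3, of the same family, went from 1.26 to 87.3 and from 1.10 to 84.2, log2 ratios of at least 1.08 and 1.03. Cyp26b1, which breaks down retinoic acid, was the lower gene, from 2048 to 377, a ratio of -2.44. The cytoplasmic binding proteins Crabp1 and Crabp2 were at -0.42 and -0.04, and the plasma carrier Rbp4 was higher beside them. With the floor at the 60th percentile 1 gene passed 2-fold upward and 1 downward, and with it at the 20th 3 passed downward.

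Of 17 transcription factor genes read that are known to act on liver or carrier genes, 14 were above the floor on an array, 7 passed 2-fold upward and 0 downward, and 13 ratios were positive, with a median of 1.02. The pioneer factors Foxa1 and Foxa2 went from 21.2 to 314 and from 26.6 to 199, log2 ratios of at least 2.93 and 2.27. The hepatocyte nuclear factor Hnf4a went from 11.1 to 196, at least 2.25, and Nr5a2 from 37.1 to 148, at least 1.85. Across the 3 readable Nr5a2 probe sets the log2 ratio ran from 0.04 to 1.85. In 8 of the 14, among them all 7 that passed, the wild-type signal was under the floor, so their ratios could only be positive. Among all probe sets of that kind 17.7% passed 2-fold upward, against 4.15% of all genes. With the floor at the 60th percentile 0 genes of the list passed 2-fold, and with it at the 20th 1 was lower. Zhx2 and Zbtb20, known as repressors of Afp after birth, were at -0.05 and 0.19, and the 8 readable Zbtb20 probe sets ran from -0.36 to 0.87.

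**Figure D4:**
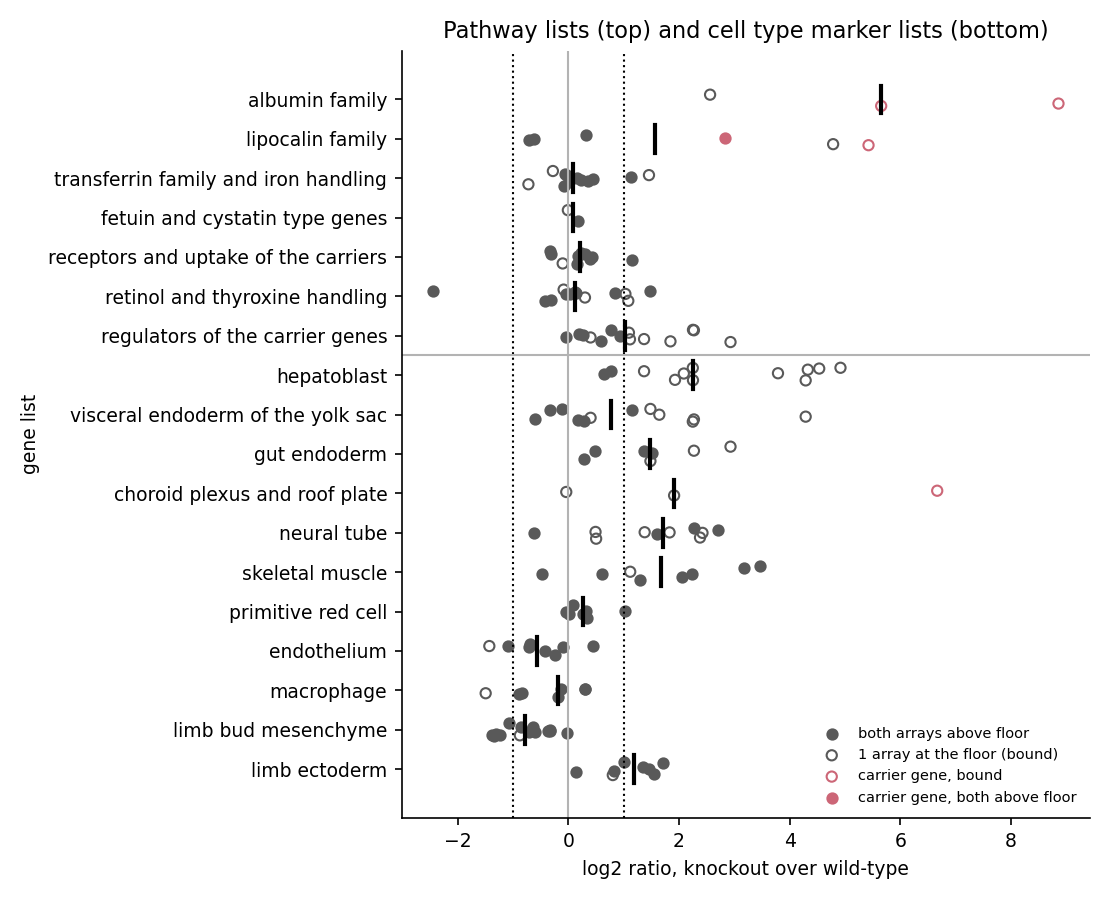
Log2 ratios, knockout over wild-type, of the genes above the floor on an array in each pathway list (upper part) and cell type marker list (lower part), with open circles for bounds, red for carrier genes, a black bar for the list's median and dotted lines at 2-fold. The hepatoblast list has a median of 2.25, itself a bound, and the limb bud mesenchyme list, at -0.78, lies below zero.

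Markers of the tissues that make these carriers differed between the arrays as well. Leaving out Ahsg, 13 hepatoblast markers were read, of which 2 exceeded the floor in wild-type and 12 in knockout. Upward, 10 of these 12 passed 2-fold, and downward 0, with a median of 2.25 on the log2 scale, itself a bound. Those 10 were all under the floor in wild-type, so their ratios could only be positive. Among all probe sets of that kind 17.7% passed 2-fold. Hhex (0.77) and Dlk1 (0.65), the markers above the floor on both arrays, did not pass. The list's summed signal was 1841 in wild-type and 7954 in knockout. Itih2, Fgb, Fgg and Apoa1 led the list, with the values given above. Onecut1 read 2.51 and 39.99, under the floor on both. The part of hepatoblast RNA in the carrier readings was not tested, and in whole tissue fewer cells of a type and less RNA per cell cannot be told apart. With the floor at the 60th percentile 5 of these genes passed 2-fold.

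Yolk sac endoderm is the other known embryonic source. Of 15 markers of its visceral endoderm that were read, 6 were above the floor in wild-type and 12 in knockout, 6 passed 2-fold upward and 0 downward, and the list's median was 0.78 on the log2 scale. The summed signal was 1917 and 3445. The higher genes included Apoa1 and Apob (at least 2.25), which the hepatoblast list holds too, Foxa2 (at least 2.27) and Cpn1 (at least 1.64). Lrp2 and Spink1 (from 24.9 to 115) also passed 2-fold. Others, named after their values were seen, did not, with Entpd2 at 17.4 and 54.4, Sox17 at 467 and 567, Dab2 at 613 and 691 and Cited1 at 305 and 282. Cubn (5.59 and 35.6), Apoa4 (8.30 and 5.16) and Slc13a4 (7.75 and 28.2) were under the floor on both arrays, Amn was at 53.0 and 42.2, and Rhox5 at 305 and 201. Apart from Lrp2, the genes past 2-fold were under the floor in wild-type, so their ratios could only be positive. Among all probe sets of that kind 17.7% passed 2-fold upward, against 4.15% of all genes. At the 60th percentile floor 1 gene of the list passed 2-fold. The part of yolk sac RNA in the carrier readings was not tested.

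For choroid plexus and roof plate, the further source of Ttr, 5 of the 7 markers other than Ttr were under the floor on both arrays, among them Kl, Folr1, Kcne2 and Otx2. Clic6 was at least 3.76-fold higher, from 35.3 to 154.9, with a log2 ratio of 0.73 by its other readable probe set. With only probe sets without a suffix, 0 genes of the list passed 2-fold upward. Lmx1a read 42.9, just over the floor, and 5.98. The summed signal of the 7 was 119.9 and 212. The part of choroid plexus RNA in the Ttr readings was not tested.

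Markers of gut endoderm, neural tube, skeletal muscle and limb ectoderm were also read. Among gut endoderm markers, 5 of the 7 above the floor passed 2-fold upward and 0 downward, with summed signals of 2099 and 5245, and Foxa1, Foxa2, Shh (1.52) and Spink1 (from 24.9 to 115) leading. Cdx2 and Pdx1 were under the floor on both arrays. Among neural tube markers, 7 of 10 were higher and 0 lower, with summed signals of 1210 and 3735, and among skeletal muscle markers 6 of 8 and 0, with 2399 and 4333. Limb ectoderm markers had 5 of 8 higher and 0 lower, with 1671 and 3927. Under the floor in wild-type alone were 3 gut endoderm, 6 neural tube, 1 skeletal muscle and 1 limb ectoderm gene. The ratios of these genes could only be positive. Among all probe sets at the wild-type floor 17.7% passed 2-fold upward, against 4.15% of all genes. Raising the floor to the 60th percentile left as higher genes 2 of gut endoderm, 3 of neural tube, 3 of skeletal muscle and 3 of limb ectoderm. Their part in the carrier readings was not tested.

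Limb bud mesenchyme ran the other way. Of its 14 markers, 0 passed 2-fold upward and 5 downward, the median was -0.78, and the summed signal was 41401 in wild-type and 24158 in knockout. Blood vessel markers had 0 of 8 higher and 2 lower, with a median of -0.56 and summed signals of 5756 and 4606, and macrophage markers 0 of 7 higher and 1 lower, with 1089 and 725. Raising the floor in the same way left as lower genes 1 of blood vessel and 0 of macrophage markers, and 5 of mesenchyme. Primitive red cell markers had 1 of 7 higher and 0 lower, a median of 0.26 and summed signals of 85403 and 90903. Klf1, a red cell transcription factor, was the higher gene, at 222 and 451. With a pseudocount of 32 in place of the floor, 0 red cell markers passed 2-fold upward. Over all 13088 genes, 4.15% were at least 2-fold higher and 2.65% at least 2-fold lower. The part of blood in the carrier readings was not tested.

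The neighbours of the carrier genes along the chromosomes were read to see how far the differences extended. Taking the 3 nearest protein-coding genes on each side of all 7 named genes, 36 further genes were found, of which 23 were above the floor on an array. Their log2 ratios ran from -0.75 to 2.56 with a median of 0.01. At least 2-fold higher were 3 and lower 0, beside 4.15% and 2.65% of all genes. At the albumin locus the higher neighbour was Afm, itself of the family. Cox18 and Ankrd17, on the Alb side, were at -0.28 and -0.32, Adamts3 farther out was at 0.27, and Rassf6, beyond Afm, went from 18.1 to 69.2, a ratio of at least 0.75.

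Around Ttr, the desmosomal gene Dsg2 was at 0.75, B4galt6 at 0.27, Trappc8 at 0.26 and Rnf125 at -0.74. None of the readable neighbours of Ttr, Rbp4, Ambp or Ahsg passed 2-fold. Fra10ac1 (0.58), Cep55 (0.33) and Myof (-0.21) were those of Rbp4, and Rgs3 (-0.75), Col27a1 (-0.66) and Zfp618 (-0.08) those of Ambp. The other two higher neighbours lie next to Trf, namely Rab6b (1.71) and 1300017J02Rik, which went from 39.2 to 108, a ratio of at least 1.40. Srprb, whose transcript shares the probe set that kept Trf from being read, had a ratio of -0.46 by a probe set of its own.

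**Figure D5:**
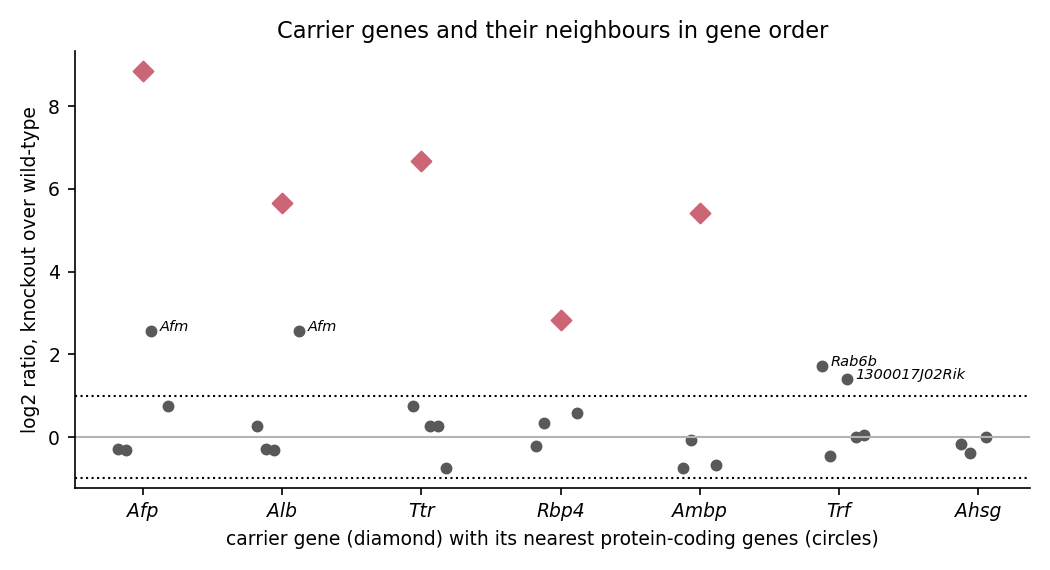
Log2 ratios, knockout over wild-type, of the carrier genes (diamonds, brightest probe set) and of the 3 nearest protein-coding genes on each side that were above the floor (circles), with dotted lines at 2-fold. Afm beside Afp and Alb, and Rab6b and 1300017J02Rik beside Trf, are the neighbours above 2-fold, and Trf and Ahsg themselves have no value.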

How the data were processed

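Whole limb bud RNA of 1 wild-type and 1 Bhlha9 knockout group was hybridised to 1 array each. Per the labels' protocols 200 ng of total RNA was reverse-transcribed and labelled with a 3′ IVT kit. The authors deposited intensities, 1 linear MAS 5.0 signal per probe set, per the series' design text. MAS 5.0 reads perfect-match and mismatch probes and scales each array alone, so low signals are noisy. The scaling target is not stated in the sources used here. With 2% of probe sets trimmed at each end, the mean signal was 500 on each array.

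Of 45101 probe sets, 64 controls were left out. Symbols came from the platform annotation, matched by Entrez identifier to RefSeq genes of GRCm38.p6. Of the rest, 34945 had 1 symbol (34741 matched), 932 had several, and 9160 were unnamed here. Each gene was read by its brightest single-symbol probe set and, for the carriers, by every one. The floor was the 40th percentile of each array, and log2 ratios were counted at 2-fold. No test was possible with 1 array per group, and their number limits the precision. The steps were tested on simulated data.

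The carrier genes, the gene lists and the motifs were chosen with earlier results of these data known. Named genes were all carrier genes, the other genes of the albumin family and receptor lists, up to 4 genes of each other list with the largest ratios above the floor on an array, the 10 closest genes and the 3 nearest protein-coding genes on each side. Further list genes, such as those under the floor, were named after their values were seen. Alternatives covered scaling, floor, probe set choice and fold threshold. Python 3.11.15, numpy 2.4.6, pandas 2.3.3 and matplotlib 3.10.9 were used, with R 4.3.3 and limma 3.58.1 for quantile and cyclic loess normalization.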

Additional observations from a re-analysis of the deposited data

How the results depend on the processing

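The 5 readable carrier genes stayed at least 2-fold higher under median centring, quantile and cyclic loess normalization, floors at the 20th and 60th percentiles, a pseudocount of 32 without a floor, the median over probe sets, and thresholds of 1.5-fold and 4-fold. With only probe sets without a suffix, 4 genes and 4 probe sets passed in place of 5 and 11. Ttr has no such probe set, and Afp then passed by 1416646_at alone. The floor set the size of the bounds. The median log2 ratio of 5.65 became 8.05 with floors of 7.83 and 8.33, the 20th percentile, and 3.62 with floors of 168 and 153, the 60th, while that of Rbp4, above both floors, stayed at 2.83. Over the pathway and marker lists, 47 counts moved by more than 1.5 times and 313 did not, most of them with another floor or threshold. No paired analysis was possible because each group has 1 array, and leaving out a replicate was not possible for the same reason. With 1 array per genotype, differences between embryos or dissections cannot be told apart from the genotype.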
